A study of Homo sapiens with 9 samples.

Results

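The mRNA levels of 10 genes of insulin signalling and its FOXO branch were measured in SW1783 cells, a human astrocytoma cell line: the insulin receptor gene INSR, the adaptors IRS1 and IRS2, the PI3K regulatory subunit PIK3R1, the transcription factors FOXO1 and FOXO3, and the FOXO-linked genes CITED2, SESN1, SESN3 and CCNG2. They were taken by symbol from a gene list and are 10 of 60675 genes in the count table. The list was chosen with earlier results of these data known. The share of the 10 genes that passed a test below is therefore no independent evidence about them as a set. All 10 passed the filter on low counts, which left 18356 genes to be tested. RNA was sequenced 24 h after treatment, in 9 libraries. Of these, 3 libraries (replicates 1 to 3) came from cells given vehicle, DMSO. The other 6 came from cells given an ethanol extract of Poria Cocos, a fungus, or of Atractylodis Rhizoma, a plant rhizome, at 20, 100 or 500 µg/mL, with 1 library for each extract and dose. Both are counted among the tonifying medicines of East Asian practice. DMSO was at 0.1% in the vehicle by the labels and at 2% by the series design, and for the treated cells neither gives a percentage. All libraries come from this single cell line and carry the same batch letter.

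Insulin or insulin-like growth factor binds its receptor, which phosphorylates the IRS adaptors, and these recruit phosphoinositide 3-kinase (PI3K) through its regulatory subunit. The lipid that PI3K makes activates AKT, and AKT phosphorylates FOXO factors so that they leave the nucleus. When the pathway is quiet, nuclear FOXO raises transcription of INSR and IRS2 in many tissues, which is a known negative feedback loop, and of stress and cell cycle genes such as the sestrins and CCNG2.

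Promoter sequence was looked up for the 10 genes in a RefSeq table (GRCh38.p14), which held all 10 with 20 annotated start sites between them. The table's windows run from 250 bases before each start to shortly after it, and were searched on both strands for the FOXO (DAF-16 family) element GTAAACA and for the insulin response element core CAAAACA. The FOXO element was in none of the 20 windows and in 3.42% of all 35116 windows in the table. The insulin response core was in 1 of the 20 windows, that of IRS2, and in 4.92% of all windows. A match is only a match of letters. The stretches before the start (for PIK3R1 cut where the GENCODE gene begins, which leaves 214 bases) are given, 5′ to 3′ on the gene's strand, for IRS2, the gene that differed most between the extracts, for PIK3R1, the gene with the steepest slope, and for CITED2, which was lower in every treated library. Capitals in the IRS2 sequence mark the core in its reverse complement, from base 40 to base 34 before the start. The IRS2 stretch is chr13:109786584-109786833 (minus strand), the PIK3R1 stretch chr5:68215506-68215719 (plus strand) and the CITED2 stretch chr6:139374649-139374898 (minus strand).
IRS2: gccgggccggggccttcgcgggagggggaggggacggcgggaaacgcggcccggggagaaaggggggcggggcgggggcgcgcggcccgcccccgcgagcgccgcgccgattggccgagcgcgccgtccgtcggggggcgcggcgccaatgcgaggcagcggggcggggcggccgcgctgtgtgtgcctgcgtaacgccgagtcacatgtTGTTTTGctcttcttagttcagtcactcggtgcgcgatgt
PIK3R1: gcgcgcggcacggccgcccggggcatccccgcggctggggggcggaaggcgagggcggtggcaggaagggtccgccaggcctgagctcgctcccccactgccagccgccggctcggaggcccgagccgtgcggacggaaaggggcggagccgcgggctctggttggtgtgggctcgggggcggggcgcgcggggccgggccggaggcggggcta
CITED2: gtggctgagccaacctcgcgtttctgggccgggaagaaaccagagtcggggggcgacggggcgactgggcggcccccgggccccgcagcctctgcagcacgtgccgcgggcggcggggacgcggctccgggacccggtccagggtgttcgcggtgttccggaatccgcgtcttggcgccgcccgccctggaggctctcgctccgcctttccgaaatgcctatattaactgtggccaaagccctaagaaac
These stretches are rich in G and C, with 76.4% for IRS2, 81.8% for PIK3R1 and 70.0% for CITED2.

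Library totals ran from 40269665 to 48905536 counts. Of 8 astrocyte markers, 3 passed the filter (VIM, SOX9 and SLC1A3). GFAP, S100B, SOX2, AQP4 and ALDH1L1 were at or near 0 in all 9 libraries, so only part of the astrocyte markers was expressed. Summed over the 8 markers, the vehicle libraries held 5906 to 6217 CPM (the count scaled by the library total and its TMM factor) and the treated ones 4765 to 5472 CPM; VIM and SOX9 were lower and SLC1A3 higher in the treated libraries. Of markers of other cell types, the mesenchymal COL1A1, THY1 and TAGLN and the myeloid CD68 were lower and the endothelial KDR higher. The sum of 4 epithelial markers was 239 to 246 CPM in vehicle and 127 to 230 CPM in treated libraries. That of 4 endothelial markers was 28.92 to 30.98 CPM in vehicle and 32.07 to 39.97 CPM in treated libraries. For 5 neuronal markers the treated sums, 56.43 to 74.56 CPM, lay on both sides of the vehicle sums, 63.16 to 65.41 CPM. Among 13 transcripts chosen as signs of RNA quality, 3 nuclear RNAs (MALAT1, NEAT1 and MEG3) were higher in treated than in vehicle libraries as a group and none was lower. Of all tested genes 12.0% were higher and 13.3% lower in that comparison. At single doses, mitochondrial transcripts were lower as well, 7 with Poria at 100 and with Atractylodis at 20 µg/mL, 6 with Atractylodis at 500 and 2 with Poria at 500 µg/mL, and 2 were higher with Poria at 20 µg/mL. Of all tested genes, 19.9%, 25.5% and 31.5% passed in either direction with Poria at 20, 100 and 500 µg/mL. With Atractylodis at 20 and 500 µg/mL, 17.5% and 31.0% passed. The part of these markers and transcripts in the results below was not tested. Levels are given as CPM, the vehicle mean with its SD over 3 libraries. The slope of an extract is the log2 change per dose step (vehicle, 20, 100, 500 µg/mL, a 5-fold increase at each step between doses), given ± SE. Adjusted p-values are from edgeR's quasi-likelihood test, adjusted over 18356 genes with a threshold of 0.05. Nothing says that the libraries were separate cultures, so the p-values speak only for the spread among these 9 samples, part or all of which may be technical.

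The changes were small, and the largest at any single dose was a 32.8% rise (PIK3R1 with Poria at 500 µg/mL). PIK3R1, FOXO1 and SESN3 were higher in all 6 treated libraries than in any vehicle library, and FOXO3 and CITED2 were lower in all 6. Slopes over the doses start from vehicle, so a step between vehicle and the treated libraries alone can count as a rise or fall. Over the Poria doses, 6 of the 10 genes passed the test: INSR, PIK3R1 and CCNG2 rose and IRS1, FOXO3 and CITED2 fell. Of all tested genes 20.8% passed, 9.17% rising and 11.6% falling. Over the Atractylodis doses, 7 passed: INSR, PIK3R1, FOXO1, SESN3 and CCNG2 rose and FOXO3 and CITED2 fell. Of all tested genes 19.0% passed, 8.49% rising and 10.5% falling. Over the treated Atractylodis doses alone, without vehicle, the slopes of PIK3R1 and FOXO3 were 0.010 and 0.0077. None of the 10 genes passed over the treated doses alone with either extract. With the 6 treated libraries as 1 group against vehicle, 6 passed: PIK3R1, FOXO1, SESN3 and CCNG2 were higher and FOXO3 and CITED2 lower. Of all tested genes 25.3% passed, 12.0% higher and 13.3% lower. The median log2 change of the 10 genes in that comparison was 0.15, and that of all tested genes was 0.014. None of the slope calls held when the concentration in µg/mL replaced the step as the regressor. The 3 comparisons share the vehicle libraries, so their calls are not independent of each other.

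**Figure D1:**
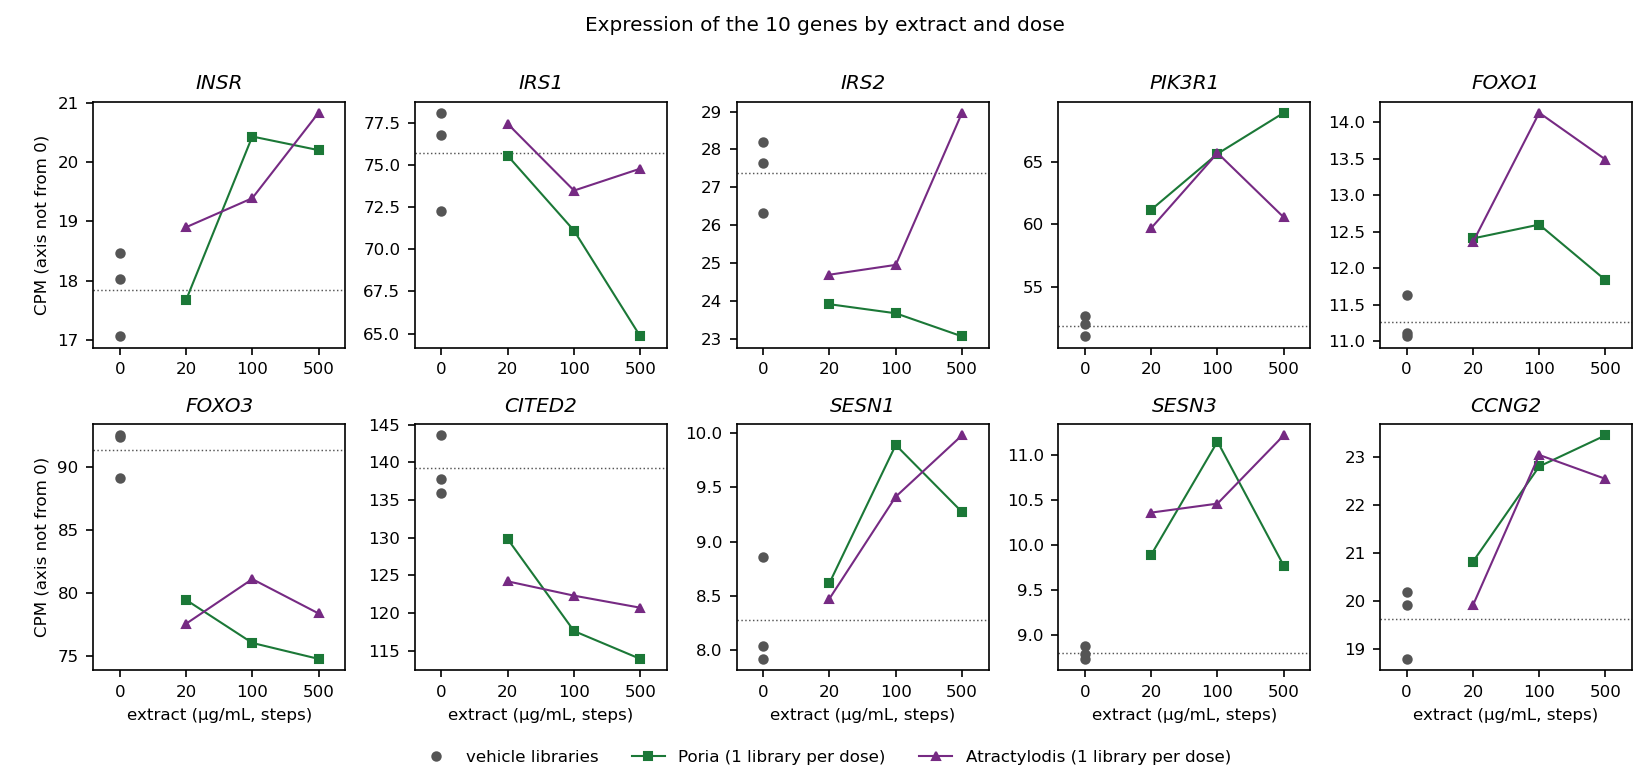
Level of each gene in CPM (vertical axes, which do not start at 0) against extract dose in µg/mL, drawn in equal steps. Grey points are the 3 vehicle libraries with their mean as a dotted line, and squares and triangles are single Poria and Atractylodis libraries; PIK3R1 lies above vehicle and CITED2 below it at every dose, and IRS2 at 500 µg/mL is 23.1 CPM with Poria and 28.97 CPM with Atractylodis.

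INSR encodes the insulin receptor (ENSG00000171105, chromosome 19, 7112255 to 7294034, minus strand, in GRCh38). Its level was 17.1, 18.5 and 18.0 CPM in the vehicle libraries (17.9 ± 0.717, SD, n = 3). With Poria it was 17.7, 20.4 and 20.2 CPM at 20, 100 and 500 µg/mL, and with Atractylodis 18.9, 19.4 and 20.8 CPM. Every treated library other than Poria at 20 µg/mL was above the vehicle range. The slope was 0.069 ± 0.024 per step for Poria (edgeR adjusted p = 0.0496) and 0.074 ± 0.024 for Atractylodis (edgeR adjusted p = 0.0392). The Poria call stood at the threshold and was lost under 12 of 14 other settings, among them without any single vehicle library (slopes 0.060 to 0.076, edgeR adjusted p 0.0609 to 0.145). The Atractylodis call was lost under 10 of 14. Treated against vehicle, INSR did not pass (log2 0.13, 95% interval 0.015 to 0.25, edgeR adjusted p = 0.0934).

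IRS1 and IRS2 are the main docking proteins between the receptor and PI3K. IRS1 (ENSG00000169047, chromosome 2, 226731317 to 226799759, minus strand) stood at 76.8, 72.3 and 78.1 CPM in vehicle (75.7 ± 3.05, SD, n = 3). It was 75.5, 71.1 and 64.8 CPM over the Poria doses and 77.4, 73.5 and 74.8 CPM over the Atractylodis doses. The Poria values at 100 and 500 µg/mL lay below the vehicle range and the other 4 treated libraries lay within it. IRS1 fell over the Poria doses, by 0.069 ± 0.018 per step (edgeR adjusted p = 0.0136), and the call rested on the top dose, since without that library the slope was -0.042 (edgeR adjusted p = 0.34). Over the Atractylodis doses the slope was -0.015 ± 0.018 (edgeR adjusted p = 0.614).

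IRS2 (ENSG00000185950, chromosome 13, 109752698 to 109786568, minus strand) stood at 26.3, 28.2 and 27.6 CPM in vehicle (27.4 ± 0.968, SD, n = 3). Over the Poria doses it was 23.9, 23.7 and 23.1 CPM, all below the vehicle range. Over the Atractylodis doses it was 24.7, 25.0 and 28.97 CPM, so the first 2 doses lay below the vehicle range and the top dose above it. Against vehicle, IRS2 was lower at each Poria dose, with log2 changes of -0.20, -0.21 and -0.25 (edgeR adjusted p = 0.0252, 0.0126 and 0.0024). None of the Atractylodis doses passed, with log2 changes of -0.15, -0.13 and 0.081 (edgeR adjusted p = 0.0961, 0.116 and 0.334). After correction for the GC content and length of transcripts, IRS2 no longer passed with Poria at 20 and 100 µg/mL (-0.13 and -0.13, edgeR adjusted p = 0.163 for both), still passed at 500 (-0.20, edgeR adjusted p = 0.0166), and was higher than vehicle with Atractylodis at 500 µg/mL (0.16, edgeR adjusted p = 0.0489). The slope was -0.075 ± 0.027 for Poria (edgeR adjusted p = 0.058) and 0.011 ± 0.027 for Atractylodis (edgeR adjusted p = 0.823). The Poria slope passed under 4 of 14 other settings: without the filter and without any single Atractylodis library. Treated against vehicle, IRS2 did not pass (log2 -0.14, edgeR adjusted p = 0.107). Of 13 other settings it passed under 1, without the Atractylodis library at 500 µg/mL (-0.19). Within the treated libraries alone, the IRS2 slope over the Atractylodis doses was 0.12 ± 0.040 (edgeR adjusted p = 0.104). With the correction for GC content and length this slope was 0.16 and passed (edgeR adjusted p = 0.0298).

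PIK3R1 encodes the regulatory subunit that holds the PI3K catalytic subunit and docks it on the IRS proteins (ENSG00000145675, chromosome 5, 68215720 to 68301821, plus strand). It showed the steepest slope among the 10 genes. Its level was 52.0, 52.6 and 51.0 CPM in vehicle (51.9 ± 0.813, SD, n = 3). It was 61.2, 65.6 and 68.9 CPM over the Poria doses and 59.7, 65.7 and 60.6 CPM over the Atractylodis doses. No treated library overlapped the vehicle range, and the top Poria dose stood 32.8% above vehicle. The slope was 0.13 ± 0.023 for Poria (edgeR adjusted p = 0.00069) and 0.092 ± 0.023 for Atractylodis (edgeR adjusted p = 0.01). The Atractylodis call was lost under 3 of 14 other settings, among them leaving out the 100 µg/mL library (slope 0.071). All 6 single doses passed against vehicle, with log2 changes from 0.20 to 0.41. The rise in the treated libraries together was 0.29 ± 0.046 (edgeR adjusted p = 0.000205), and it passed under all 13 other settings, where it ran from 0.20 to 0.31.

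FOXO1 and FOXO3 encode the forkhead factors that AKT keeps out of the nucleus, and of their mRNAs FOXO1 was higher and FOXO3 lower in the treated libraries. FOXO1 (ENSG00000150907, chromosome 13, 40469953 to 40666597, minus strand) stood at 11.6, 11.1 and 11.1 CPM in vehicle (11.3 ± 0.312, SD, n = 3). It was 12.4, 12.6 and 11.8 CPM over the Poria doses and 12.4, 14.1 and 13.5 CPM over the Atractylodis doses. All 6 treated libraries lay above the vehicle range, the top Poria dose by the smallest margin. FOXO1 rose over the Atractylodis doses (slope 0.097 ± 0.029, edgeR adjusted p = 0.0278), a call lost under 6 of 14 other settings, among them without any single vehicle library (edgeR adjusted p = 0.0629 to 0.083). It did not pass over the Poria doses (0.032 ± 0.029, edgeR adjusted p = 0.483). The difference between the slopes was not past the threshold either (-0.064 ± 0.032, edgeR adjusted p = 0.404). The treated libraries together were higher by 0.18 ± 0.063 (edgeR adjusted p = 0.0405), a call lost under 9 of 13 other settings (edgeR adjusted p up to 0.145).

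FOXO3 (ENSG00000118689, chromosome 6, 108559835 to 108684774, plus strand) stood at 92.5, 89.1 and 92.4 CPM in vehicle (91.3 ± 1.94, SD, n = 3). It was 79.4, 76.0 and 74.7 CPM over the Poria doses and 77.5, 81.1 and 78.3 CPM over the Atractylodis doses. Every treated library was below the vehicle range, already at 20 µg/mL. FOXO3 fell in the treated libraries together by 0.23 ± 0.035 (edgeR adjusted p = 0.000164), a level of -14.8% relative to vehicle, and passed at all 6 single doses. The slope was -0.096 ± 0.021 for Poria (edgeR adjusted p = 0.00361) and -0.071 ± 0.021 for Atractylodis (edgeR adjusted p = 0.0245). The Atractylodis slope did not pass without any single vehicle library, whereas treated against vehicle passed under all 13 other settings. FOXO3 has a near-identical copy, FOXO3B, which held up to 227 counts in a library, where FOXO3 held at least 3359, so the split of reads between them is uncertain.

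CITED2 encodes a transcriptional co-regulator that binds CBP and p300 and competes with hypoxia-inducible factor (ENSG00000164442, chromosome 6, 139371807 to 139374620, minus strand). Its level was 143.6, 136.0 and 137.8 CPM in vehicle (139 ± 3.97, SD, n = 3). It was 129.8, 118 and 114 CPM over the Poria doses and 124, 122 and 121 CPM over the Atractylodis doses. The values of both extracts descended with dose, and none reached the vehicle range. The Atractylodis values lay closer to each other than the vehicle SD. Over the treated doses alone, neither slope passed (-0.094 for Poria, edgeR adjusted p = 0.0712, and -0.020 for Atractylodis, edgeR adjusted p = 0.766). CITED2 fell over the Poria doses by 0.096 ± 0.017 per step (edgeR adjusted p = 0.00114) and over the Atractylodis doses fell by 0.075 ± 0.017 (edgeR adjusted p = 0.00708). In the treated libraries together it fell by 0.20 ± 0.040 (edgeR adjusted p = 0.00157), and this passed under all 13 other settings. Of the single doses, all but Poria at 20 µg/mL passed (log2 -0.10 there, edgeR adjusted p = 0.0794).

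SESN1 and SESN3 encode sestrins, stress proteins that restrain mTORC1. SESN1 (ENSG00000080546, chromosome 6, 108986437 to 109094819, minus strand) was low, at 8.86, 8.05 and 7.92 CPM in vehicle (8.28 ± 0.510, SD, n = 3). It was 8.62, 9.89 and 9.27 CPM over the Poria doses and 8.48, 9.41 and 9.98 CPM over the Atractylodis doses. Both 20 µg/mL libraries lay within the vehicle range and the other 4 above it. Neither slope passed (0.076 ± 0.032 for Poria, edgeR adjusted p = 0.0984; 0.087 ± 0.032 for Atractylodis, edgeR adjusted p = 0.0645). At single doses, SESN1 passed with Poria at 100 µg/mL (edgeR adjusted p = 0.0498) and Atractylodis at 500 µg/mL (edgeR adjusted p = 0.0331), and these calls were lost under 5 and 2 of 6 other settings.

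SESN3 (ENSG00000149212, chromosome 11, 95165513 to 95232541, minus strand) stood at 8.79, 8.73 and 8.88 CPM in vehicle (8.80 ± 0.0737, SD, n = 3). That SD is below the counting error of a single library, 0.465 CPM. It was 9.89, 11.2 and 9.77 CPM over the Poria doses and 10.4, 10.5 and 11.2 CPM over the Atractylodis doses, all above the vehicle range. SESN3 rose over the Atractylodis doses (slope 0.11 ± 0.033, edgeR adjusted p = 0.0313), and the Poria slope did not pass (0.073 ± 0.033, edgeR adjusted p = 0.131). The Atractylodis call was lost under 8 of 14 other settings. Among them were DESeq2, leaving out any single vehicle library, and leaving out the 100 or the 500 µg/mL library. The treated libraries together were higher by 0.25 ± 0.064 (edgeR adjusted p = 0.00773), or 19.0%.

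CCNG2 encodes cyclin G2, an atypical cyclin linked to cell cycle arrest (ENSG00000138764, chromosome 4, 77157151 to 77433388, plus strand). Its level was 19.9, 20.2 and 18.8 CPM in vehicle (19.6 ± 0.745, SD, n = 3). It was 20.8, 22.8 and 23.5 CPM over the Poria doses and 19.9, 23.1 and 22.6 CPM over the Atractylodis doses. The Atractylodis library at 20 µg/mL lay within the vehicle range and the other 5 above it. CCNG2 rose over the doses of Poria (slope 0.092 ± 0.023, edgeR adjusted p = 0.00955) and of Atractylodis (0.078 ± 0.024, edgeR adjusted p = 0.0272). The Poria call was lost without the 500 µg/mL library (edgeR adjusted p = 0.0592). The Atractylodis call was lost under 6 of 14 other settings, among them without vehicle replicate 1 or 3 (edgeR adjusted p = 0.0576 and 0.0892) and without the 100 or the 500 µg/mL library (0.103 and 0.108). The treated libraries together were higher by 0.17 ± 0.057 (edgeR adjusted p = 0.0343), a call lost under 6 of 13 other settings.

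**Figure D2:**
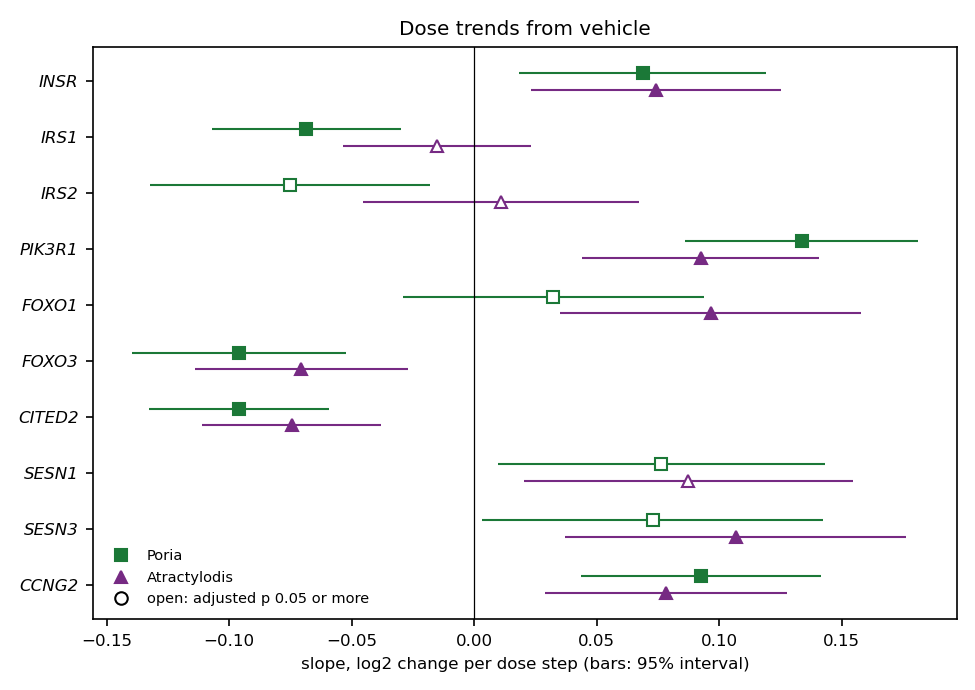
Slope of each gene in log2 change per dose step (horizontal axis) for Poria (squares) and Atractylodis (triangles), with 95% intervals. Filled symbols passed the edgeR test at an adjusted p under 0.05; PIK3R1 has the steepest slope, 0.13 with Poria, and for IRS2 the slopes are -0.075 and 0.011.

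The levels can be ordered within each gene, from the vehicle mean and the 6 single treated libraries, with the vehicle SD or the counting error, whichever was larger, as the spread. Of the 6 gaps between neighbours in this order, 1 was wider than the spread for IRS1, FOXO3 and SESN1, 2 for INSR, IRS2, CITED2 and CCNG2, and 3 for PIK3R1, FOXO1 and SESN3. For FOXO3 that single gap, 10.2 CPM wide, lay between vehicle and the highest treated library, and the 6 treated libraries followed each other within the spread. For PIK3R1 the widest gap, 7.80 CPM, also lay next to vehicle. For IRS1 it lay between Poria at 500 and at 100 µg/mL (6.27 CPM). For IRS2 the gaps on each side of vehicle were the wide ones, with 5 treated libraries under it and Atractylodis at 500 µg/mL over it. Per kilobase of the longest transcript, the vehicle level was highest for CITED2, at 59.1 CPM, followed by FOXO3 at 12.4, IRS1 at 7.80 and PIK3R1 at 7.40 CPM per kilobase, and SESN3 was lowest at 0.921.

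PIK3R1 and FOXO3 already passed at the lowest dose of both extracts. At 20 µg/mL, 3 of the 10 genes passed against vehicle with Poria (PIK3R1 higher, IRS2 and FOXO3 lower) and 3 with Atractylodis (PIK3R1 higher, FOXO3 and CITED2 lower), where 19.9% and 17.5% of all tested genes passed. At 100 µg/mL, 8 passed with Poria and 6 with Atractylodis, against 25.5% and 25.2%. At 500 µg/mL, 7 passed with Poria and 8 with Atractylodis, against 31.5% and 31.0%. These fits take the spread of a lone treated library from the vehicle libraries. When the slope was taken over the treated doses alone, none of the 10 genes passed with either extract (2.45% of all tested genes passed with Poria and 4.04% with Atractylodis), while 4 were at an unadjusted p under 0.05 with Poria (INSR, IRS1, PIK3R1 and CITED2) and 1 with Atractylodis (IRS2). DESeq2 called none of the 7 genes with Poria and 4 with Atractylodis for which it gave an adjusted p; IRS2 with Atractylodis had none. Within Poria, IRS1 passed under 4 of 13 other settings (edgeR adjusted p down to 0.0173) and CITED2 under 3 (down to 0.0437). The steepest such slopes for Poria were those of IRS1 (-0.11 ± 0.031, edgeR adjusted p = 0.0617), CITED2 (-0.094 ± 0.028, edgeR adjusted p = 0.0712) and INSR (0.094 ± 0.044, edgeR adjusted p = 0.312).

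The extracts were compared with each other at each dose, which made 30 comparisons for the 10 genes. At 500 µg/mL, 3 genes differed: IRS2 and IRS1 were lower and PIK3R1 higher with Poria than with Atractylodis. IRS2 differed by -0.33 (95% interval -0.48 to -0.18, edgeR adjusted p = 0.00377), from 23.1 against 28.97 CPM. IRS1 differed by -0.21 (-0.32 to -0.089, edgeR adjusted p = 0.0186), from 64.8 against 74.8 CPM, and PIK3R1 by 0.19 (0.075 to 0.30, edgeR adjusted p = 0.026), from 68.9 against 60.6 CPM. At this dose 11.1% of all tested genes differed. None of the 10 genes differed at 20 µg/mL (1.07% of all tested genes did) or at 100 µg/mL (0.294%) in edgeR's test, and 0 of the 10 were at an unadjusted p under 0.05 at either of these doses. The intervals there still allow differences: for IRS2 from -0.20 to 0.11 at 20 µg/mL and from -0.23 to 0.080 at 100 µg/mL, and for SESN1 from -0.22 to 0.27 and from -0.17 to 0.31. The slopes of the extracts differed for none of the 10 genes, with 1.16% of all tested genes past the threshold. IRS1 and IRS2 were at an unadjusted p under 0.05, and DESeq2 called none of the 10. With the extracts paired by dose, the mean difference over the 3 doses passed for none of the 10 either (0.163% of all tested genes passed), and IRS1 (-0.096) and IRS2 (-0.15) were again at an unadjusted p under 0.05 (edgeR adjusted p = 0.329 and 0.24). IRS2 had the largest difference in slope, -0.086 (95% interval -0.15 to -0.024, edgeR adjusted p = 0.198), followed by FOXO1 and IRS1 (-0.064 and -0.053). The 500 µg/mL differences rest on 1 library of each extract, and beside them MALAT1 and NEAT1 were lower and MT-ND4 and MT-ATP6 higher with Poria than with Atractylodis at that dose.

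**Figure D3:**
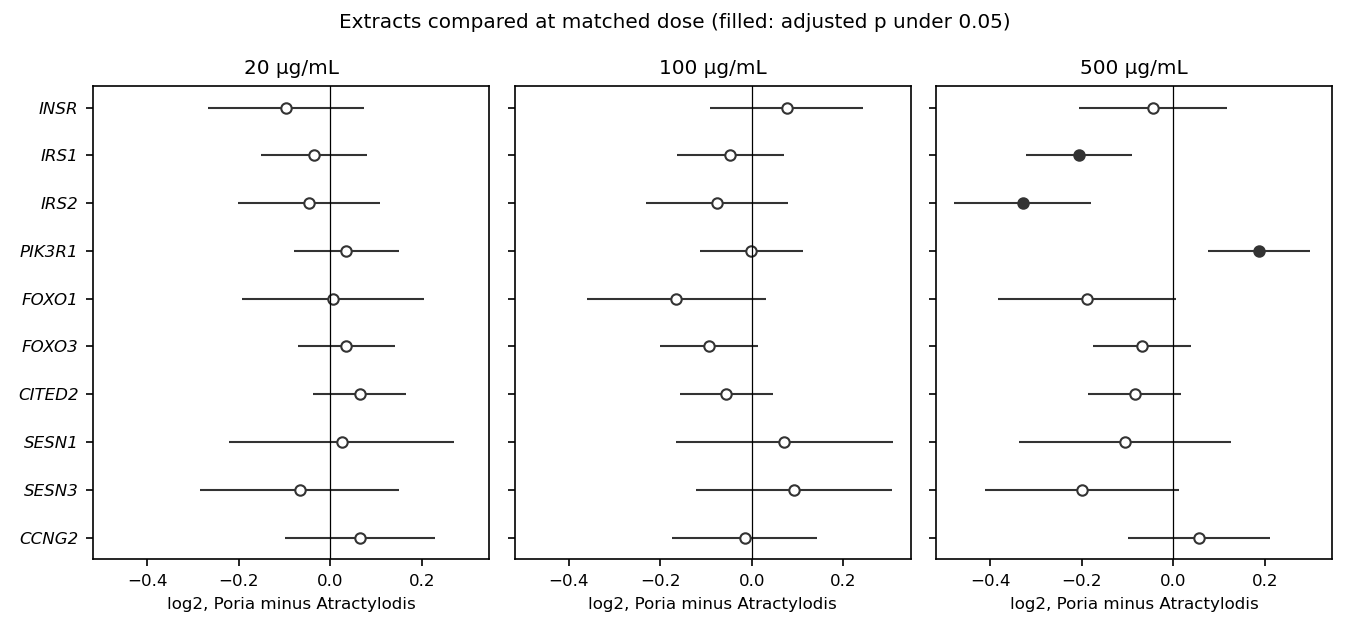
Difference between extracts, Poria minus Atractylodis, in log2 (horizontal axes) for each gene at 20, 100 and 500 µg/mL, with 95% intervals from 1 library of each extract and the spread of the vehicle libraries. Filled points passed the edgeR test at an adjusted p under 0.05: IRS1 (-0.21), IRS2 (-0.33) and PIK3R1 (0.19), all at 500 µg/mL.

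Across all genes, the change with treatment moved with the GC content of the transcript. Spearman's rho between GC content and the log2 change of treated against vehicle was -0.43 over 12675 genes, which share the same 9 libraries. Among the 10 genes, the 4 that were higher had a GC content of 37.1% (SESN3), 40.3% (PIK3R1), 40.8% (CCNG2) and 46.4% (FOXO1), and those that were lower had 47.9% (CITED2) and 49.1% (FOXO3). IRS2 had the highest, 58.7%. After the correction for GC content and length, PIK3R1, FOXO3 and CITED2 still passed for treated against vehicle (0.20, -0.23 and -0.19). FOXO1 (0.16, edgeR adjusted p = 0.0731), SESN3 (0.13, edgeR adjusted p = 0.154) and CCNG2 (0.088, edgeR adjusted p = 0.232) did not. With the same correction INSR and CCNG2 no longer passed over the Poria doses (slopes 0.060 and 0.059, edgeR adjusted p = 0.102 and 0.072). Over the Atractylodis doses FOXO1, FOXO3 and CITED2 passed, and INSR (0.073, edgeR adjusted p = 0.0533), PIK3R1 (0.056, edgeR adjusted p = 0.0699), CCNG2 (0.045, edgeR adjusted p = 0.175) and SESN3 (0.059, edgeR adjusted p = 0.224) did not. The INSR slopes were thus nearly as large as without it. The differences between extracts at 500 µg/mL were as large with it, -0.35 for IRS2, -0.23 for IRS1 and 0.18 for PIK3R1. The part that GC content has in the uncorrected changes was not tested further.

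**Figure D4:**
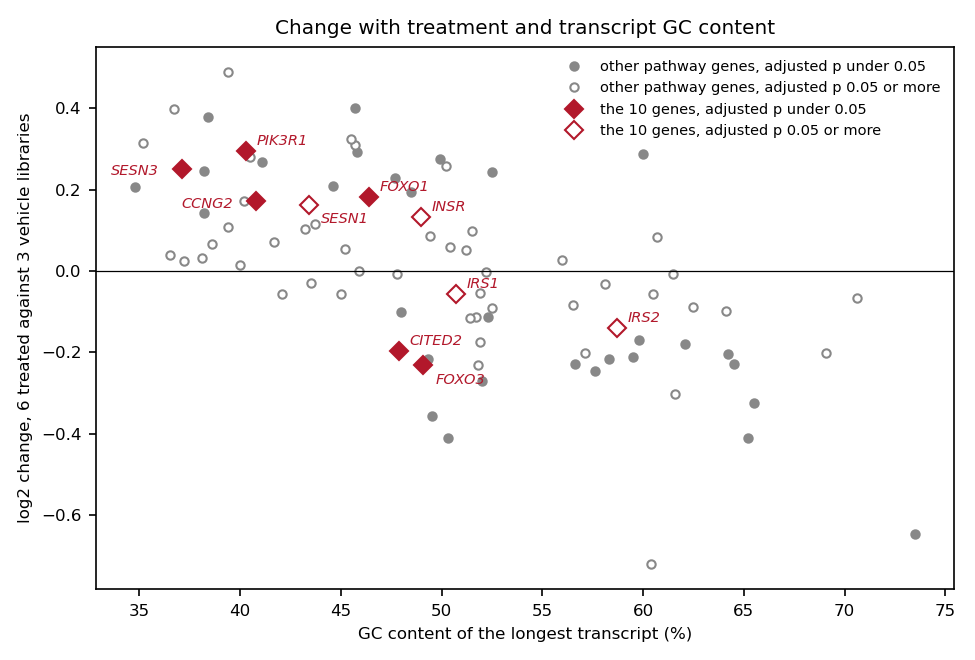
Log2 change of the 6 treated against the 3 vehicle libraries (vertical axis) against the GC content of each gene's longest transcript in percent (horizontal axis), for the 10 genes (red diamonds) and 77 other tested genes of the pathway lists (grey). Filled symbols passed the edgeR test at an adjusted p under 0.05; TXNIP, at 2.14, lies beyond the axis, and PIK3R1 and SESN3 sit at the low GC end with positive changes.

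Other genes of the pathway were taken from lists of 20 receptors, ligands and adaptors, 28 genes of the PI3K, AKT and mTOR core, and 31 other FOXO targets. Results for these genes and for the relatives below are without the correction for GC content and length. The part of GC content in them was not tested. Their counts stand against the shares of all tested genes that passed, 20.8% over the Poria doses (9.17% rising, 11.6% falling) and 19.0% over the Atractylodis doses (8.49% and 10.5%). Of 18 tested receptors, ligands and adaptors, 1 rose and 3 fell over the Poria doses (22.2%), and 3 rose and 5 fell over the Atractylodis doses (44.4%). The median slopes were -0.028 and -0.045, where the medians of all tested genes were 0.0012 and 0.0033. GAB1, a docking protein related to the IRS family, rose under both extracts, from 5.92 CPM in vehicle to 8.46 CPM at the top Poria and 7.72 CPM at the top Atractylodis dose (slopes 0.17 and 0.11, edgeR adjusted p = 0.00286 and 0.0364). IGFBP3, the main carrier of insulin-like growth factors in blood, fell under both, from 631 CPM to 507 and 467 CPM at the top doses (slopes -0.11 and -0.14, edgeR adjusted p = 0.0212 and 0.009). IGFBP6 fell over the Poria doses (-0.11, edgeR adjusted p = 0.00571) and IGFBP5 over the Atractylodis doses (-0.16, edgeR adjusted p = 2e-04). The difference in slope passed for IGFBP5 (0.15, edgeR adjusted p = 0.00379) and not for IGFBP6 (-0.084, edgeR adjusted p = 0.163).

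All 28 genes of the PI3K, AKT and mTOR core were tested, and 6 rose and 8 fell over the Poria doses (50%) and 4 and 10 over the Atractylodis doses (50%), with median slopes of -0.0032 and -0.026. SGK1, an AKT-related kinase that also phosphorylates FOXO factors, rose from a vehicle level of 60.3 CPM to 85.9 CPM with Poria and 73.0 CPM with Atractylodis at 500 µg/mL (slopes 0.15 and 0.093, edgeR adjusted p = 6.85e-05 and 0.00285). PIK3CA, a catalytic subunit of PI3K, rose from 62.9 CPM to 77.6 and 74.7 CPM (slopes 0.11 and 0.090, edgeR adjusted p = 0.000755 and 0.0029). MLST8, a subunit of both mTOR complexes, fell from 41.0 CPM to 30.0 and 34.1 CPM (slopes -0.15 and -0.095, edgeR adjusted p = 0.00015 and 0.00486). EIF4EBP1, the translation repressor that mTORC1 phosphorylates, fell from 112 CPM to 83.6 and 88.5 CPM (slopes -0.15 and -0.12, edgeR adjusted p = 0.000579 and 0.00261). The GC content of the transcript was 41.1% for SGK1 and 34.8% for PIK3CA, and 64.5% for MLST8 and 65.5% for EIF4EBP1.

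Of 26 tested other FOXO targets, 5 rose and 2 fell over the Poria doses (26.9%) and 7 rose and 3 fell over the Atractylodis doses (38.5%), with median slopes of 0.020 and 0.059. CCND1, cyclin D1, which FOXO factors repress, fell under both extracts, from 209 CPM without extract to 154.5 and 143 CPM at the top doses (slopes -0.16 and -0.18, edgeR adjusted p = 0.00026 and 0.000228). BNIP3, a mitophagy receptor, fell over the Poria doses (-0.11, edgeR adjusted p = 0.00145) and not over the Atractylodis doses (-0.0086, edgeR adjusted p = 0.822), and the difference passed (-0.11, edgeR adjusted p = 0.0322). GADD45A, a DNA damage and growth arrest gene, rose over the Poria doses (0.10, edgeR adjusted p = 0.00417). ATG14, an autophagy gene, rose over the Atractylodis doses (0.10, edgeR adjusted p = 0.00485); its Poria slope was 0.057 (edgeR adjusted p = 0.0861), and it was higher than vehicle at each Poria dose (log2 0.15 to 0.18). TXNIP, singled out after its values were seen, stood at 216.5 CPM with Poria at 500 µg/mL and at no more than 16.3 CPM in any other library.

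The close relatives of the 10 genes did not move as a block. Of 10 relatives, 9 were tested (IRS4 was not), and 2 rose and 2 fell under each extract (44.4%), where 20.8% and 19.0% of all tested genes passed. PIK3R2, PIK3R3 and IGF1R are also on the lists above, so their calls were already counted there. Among the PI3K regulatory subunits, PIK3R3 rose like PIK3R1 (21.7 CPM in vehicle, 27.2 and 26.1 CPM at the top doses; slopes 0.11 and 0.097, edgeR adjusted p = 0.0189 and 0.0345). PIK3R2 fell (125 CPM in vehicle, 103 and 106 CPM; slopes -0.097 and -0.076, edgeR adjusted p = 0.000846 and 0.00524). The GC content of these transcripts was 40.3% for PIK3R1, 45.8% for PIK3R3 and 64.2% for PIK3R2. IGF1R, the receptor related to INSR, fell (slopes -0.066 and -0.066, edgeR adjusted p = 0.0303 and 0.0343), where INSR had positive slopes. CCNG1, the relative of CCNG2, rose from 87.9 CPM to 110.0 and 109 CPM (slopes 0.11 and 0.10, edgeR adjusted p = 0.000789 and 0.00128). SESN2 and CITED4 were lower in the treated libraries together (-0.21 and -0.65, edgeR adjusted p = 0.047 and 0.000427), and neither passed as a slope. FOXO4 was at 7.24 CPM in vehicle with slopes of -0.0027 and 0.066, neither past the threshold, and FOXO6 and CITED1 were at no more than 0.319 and 0.255 CPM in any library.

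The genes with the pattern most like IRS2 over the 9 libraries, out of 11562 ranked by Pearson's correlation of log2 CPM, were DNAJB9 (0.979), CAPN2 (0.967) and SESN2 (0.962). DNAJB9 was at 43.4 CPM in vehicle, at 34.2, 34.5 and 31.3 CPM over the Poria doses and at 34.5, 36.9 and 45.2 CPM over the Atractylodis doses. Like IRS2, it stood at its highest with Atractylodis at 500 µg/mL. The genes most like CITED2 were MXRA7 (0.992), SH3BGRL3 (0.982) and SSNA1 (0.981). SH3BGRL3 had 539.7 CPM in vehicle, 408 CPM at the top Poria dose and 428 CPM at the top Atractylodis dose. These correlations describe shared libraries and carry no test.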

How the data were processed

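The deposited table holds RSEM expected counts per gene, made by the authors. Per the submitters' processing notes, FastQC 0.11.9, Trim Galore 0.6.5, STAR 2.7.3a and RSEM 1.3.3 were used with hg38, and the annotation release is not given in the sources used here. Of 279 columns, 9 belong to these samples, and the other 270 were not used. These values were rounded to whole numbers before testing. GRCh38 positions, GC content and transcript length came from GENCODE 29. Symbols came from a separate list of gene names, and from GENCODE 29 where that list had none. Library totals ran from 40269665 to 48905536 counts. Counting error of 1 library exceeded the SD of the vehicle libraries for PIK3R1, FOXO1 and SESN3 and was below it for the other 7 genes.

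Tests used edgeR 4.0.16 in R 4.3.3 (TMM scaling, filterByExpr with a count minimum of 10 and a total minimum of 15, robust quasi-likelihood fits, Benjamini-Hochberg adjustment over 18356 genes). Slopes came from 1 fit over all 9 libraries (6 residual degrees of freedom), treated against vehicle from a fit of 2 groups (7), slopes within the treated libraries from a fit with an offset per extract (4), and single or matched doses from a fit of 7 groups (2), where a lone library takes its spread from vehicle. The SE was obtained as |log2 change|/√F. The fitting steps were run on simulated counts with known slopes over the Poria doses, a fixed spread and no effect of GC content. That run checks the fitting steps and says nothing on whether the calls in these data are right. Alternatives were other size factors, no filter, DESeq2 1.42.0, a GC and length correction by natural splines, dose in place of dose step, and leaving out libraries. Those for matched doses, those for single doses other than size factors, and a fit with dose as a block (4 residual degrees of freedom), which pairs the extracts by dose, were chosen after seeing the data.

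The 10 genes and the lists were chosen with earlier results of these data known. Named from each list were up to 4 genes with the smallest p for either slope, all tested relatives of the 10 genes, and the 3 genes most like IRS2 and CITED2 in pattern.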

Additional observations from a re-analysis of the deposited data

Results flagged for a closer look

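A difference between the extracts was past the threshold for 3 of the 10 genes, all at 500 µg/mL, where 11.1% of all tested genes passed. With Poria minus Atractylodis as the direction, IRS2 differed by -0.3288 in log2, IRS1 by -0.2057 and PIK3R1 by 0.1868 (edgeR adjusted p = 0.00377, 0.0186 and 0.026). Each compares 1 library with 1 library, and the test of the slopes over all doses did not pass for any of them (edgeR adjusted p = 0.198, 0.245 and 0.511). None of the other settings tried leaves out or replaces either of the 2 libraries compared, so they say nothing on whether the differences would recur in other libraries.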

How the results depend on the processing

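For treated against vehicle, PIK3R1, FOXO3 and CITED2 passed under all 13 alternatives, while FOXO1 was lost under 9, CCNG2 under 6 and SESN3 under 1. With dose in place of dose step, genes called fell from 3817 to 125 (Poria), from 3495 to 67 (Atractylodis) and from 213 to 54 (difference in slope), 0 and 0 of the 10 genes passed over the 2 extracts' doses, and the Poria slope of FOXO1 became -0.013. With the GC and length correction, 3 of the 10 genes passed over the Atractylodis doses, 3 for treated against vehicle and 3 for Poria at 100 µg/mL. Of all 18356 tested genes, 2652, 3946 and 3658 passed in these comparisons. Within the treated libraries 1 of the 10 passed with Poria and 1 with Atractylodis. Of all tested genes, 622 in place of 449 and 489 in place of 742 passed there. The same correction turned the sign of uncalled values: PIK3R1 within Atractylodis (-0.024), CCNG2 with Atractylodis at 20 µg/mL (-0.011), and, between extracts, IRS2, PIK3R1, FOXO1 and SESN1 at 20 µg/mL (0.021, -0.018, -0.024 and -0.018) and PIK3R1 at 100 µg/mL (0.012). Without the filter, 555 genes differed in slope, 685 in place of 449 passed within Poria, and 333 and 110 in place of 196 and 54 differed between extracts at 20 and 100 µg/mL. DESeq2 gave 339 and 240 for the first pair, and no adjusted p for 9 results of the 10 genes within the treated libraries. On plain library totals the treated to vehicle ratio of IRS1 was 1.01 in place of 0.962. The ratios of INSR, IRS2, PIK3R1, FOXO1, FOXO3, CITED2, SESN3 and CCNG2 moved too, by more than the relative vehicle SD. On plain totals FOXO3 was at 0.893, CITED2 at 0.913, IRS2 at 0.951 and PIK3R1 at 1.28. The TMM factors ran from 0.9635 to 0.9754 in vehicle and from 1.001 to 1.028 in treated libraries, so the size of these changes depends on the scaling.

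Leaving out 1 library at a time, genes called ran from 1035 to 4297 for the Atractylodis slope (1 to 8 of the 10 genes), from 2984 to 5354 for treated against vehicle, from 0 to 300 for the difference, from 16 to 657 within Poria (0 to 2 of the 10) and from 102 to 1196 within Atractylodis. Without 1 vehicle library, the extracts differed in 412 to 847 genes at 20 µg/mL, 127 to 239 at 100 µg/mL and 2185 to 3133 at 500 µg/mL. Uncalled values that changed sign on leaving out a library were the Atractylodis slope of IRS2 (-0.067 to 0.028), differences in slope of INSR (-0.019 to 0.0078), SESN1 (-0.032 to 0.031), SESN3 (-0.065 to 0.040), PIK3R1 (-0.020 to 0.065), CITED2 (-0.032 to 0.0020) and CCNG2 (-0.0071 to 0.030), slopes within Poria of FOXO1 (-0.090 to 0.023), SESN3 (-0.19 to 0.17), INSR (-0.016 to 0.21) and SESN1 (-0.092 to 0.20), slopes within Atractylodis of IRS1 (-0.076 to 0.025), PIK3R1 (-0.12 to 0.14), FOXO1 (-0.066 to 0.19), FOXO3 (-0.049 to 0.064) and CCNG2 (-0.032 to 0.21), and, against vehicle, INSR (-0.050 to 0.0065) and IRS1 (-0.040 to 0.015) with Poria at 20 µg/mL, IRS1 with Atractylodis at 500 µg/mL (-0.053 to 0.0027), and IRS1 (-0.0050 to 0.051), SESN1 (-0.0015 to 0.082) and CCNG2 (-0.014 to 0.035) with Atractylodis at 20 µg/mL. The causes were not tested. Pairing by replicate number was not possible because each treated group holds 1 library, so the groups share fewer than 2 replicate numbers. Pairing the extracts by dose was possible, and in place of comparing slopes it gave 30 in place of 213 genes and 0 of the 10.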

Other observations

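The low-dose Poria library (20 µg/mL) and the middle-dose Atractylodis library (100 µg/mL) were closer to each other than any other 2 treated libraries. Chi-square per degree of freedom between their counts was 3.47, where the other pairs of treated libraries gave 7.79 to 21.6 and the pairs of vehicle libraries 2.46 to 3.44. Between these 2 libraries, the levels were 61.2 and 65.7 CPM for PIK3R1, 79.4 and 81.1 CPM for FOXO3 and 23.9 and 25.0 CPM for IRS2.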
